A study of Mus musculus with 8 samples.

Results

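The 9 genes described are grouped as cell-surface receptors for lysophospholipids and oxysterols. Lpar2 and Lpar6 are receptors for lysophosphatidic acid (LPA), and S1pr1, S1pr4 and S1pr5 for sphingosine 1-phosphate. P2ry10 and Gpr174 are receptors for lysophosphatidylserine, and Gpr183 for oxysterols. Gpr132 responds to oxidised fatty acids and has been linked to lysophosphatidylcholine. The 9 genes were taken by symbol from a table of 41730 genes and other features, and all 9 were found. The receptors had been picked with the comparison of agonist and solvent already known, so their values and calls in that comparison are given as a description and not as independent evidence.

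RNA came from CD8+ T cells of OT-I mice, which carry a transgenic T cell receptor specific for SIINFEKL, a peptide of ovalbumin. In both groups these T cells shared a culture with bone marrow-derived dendritic cells loaded with the peptide and were sorted out of it before RNA was taken. The groups were 2 µM RGX-104, a drug that activates the liver X receptors (LXR), nuclear receptors for oxysterols, with 4 libraries (replicates 5 to 8), and the solvent DMSO, with 4 libraries (replicates 1 to 4). The genotype label of every library is OT-I, and the agonist or solvent was present in the whole co-culture, so T cells and dendritic cells were both exposed. Animal age, culture time and the number of animals are not given in the labels, which also do not say whether libraries came from separate cultures, so the spread between libraries may be technical.

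These receptors are heptahelical proteins that signal through heterotrimeric G proteins. Lysophospholipids are membrane lipids that have lost an acyl chain or carry a phosphorylated sphingoid base, and gradients of sphingosine 1-phosphate between blood, lymph and tissue guide lymphocytes out of lymphoid organs through S1pr1. Oxysterols are oxidised forms of cholesterol. Some of them are natural ligands of LXR inside the cell, and a dihydroxylated form is the ligand of Gpr183 at its surface, where it guides B cells, T cells and dendritic cells within lymphoid organs.

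LXR binds DNA together with the retinoid X receptor at repeats of the hexamer AGGTCA or its variant AGTTCA in the same direction, spaced by 4 bases. Upstream sequences are shown for the receptor with the largest rise and the one with the largest fall, Lpar2 and Gpr183, and for P2ry10 and Gpr132, whose windows hold the hexamer. Each is the 250 bases before an annotated start in RefSeq, build GRCm38.p6, 5′ to 3′ on the gene's strand, with capitals marking AGGTCA or its reverse complement. The start used for Gpr132 is internal, so its window lies inside the gene, which spans 112850873 to 112868416.
Lpar2 (chr8:69822315-69822564, plus strand): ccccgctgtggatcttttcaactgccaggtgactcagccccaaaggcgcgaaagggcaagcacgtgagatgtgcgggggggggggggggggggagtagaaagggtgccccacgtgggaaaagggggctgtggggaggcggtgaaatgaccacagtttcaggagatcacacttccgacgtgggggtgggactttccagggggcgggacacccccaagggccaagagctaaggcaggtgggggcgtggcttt
Gpr183 (chr14:121965194-121965443, minus strand): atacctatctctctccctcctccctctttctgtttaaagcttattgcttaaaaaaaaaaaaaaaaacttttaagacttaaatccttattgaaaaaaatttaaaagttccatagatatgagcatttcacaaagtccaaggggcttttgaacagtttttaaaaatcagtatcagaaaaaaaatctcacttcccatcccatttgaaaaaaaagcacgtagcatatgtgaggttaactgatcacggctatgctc
P2ry10 (chrX:107088242-107088491, plus strand): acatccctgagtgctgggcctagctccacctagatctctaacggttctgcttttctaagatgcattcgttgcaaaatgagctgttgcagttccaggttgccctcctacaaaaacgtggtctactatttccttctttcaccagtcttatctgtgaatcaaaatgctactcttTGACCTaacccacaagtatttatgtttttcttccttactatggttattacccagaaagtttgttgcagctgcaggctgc
Gpr132 (chr12:112860917-112861166, minus strand): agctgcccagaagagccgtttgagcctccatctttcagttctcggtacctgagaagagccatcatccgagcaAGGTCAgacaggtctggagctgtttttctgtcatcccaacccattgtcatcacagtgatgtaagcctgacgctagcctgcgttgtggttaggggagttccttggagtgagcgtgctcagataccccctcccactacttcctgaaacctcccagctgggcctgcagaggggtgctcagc

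The spaced repeat (AGGTCA, any 4 bases, AGGTCA), searched on both strands, was in none of the upstream windows of 8 receptor genes. Its spellings with AGTTCA in either or both places were not in them either. For S1pr1 no upstream sequence was available to search. The windows of Gpr132, of Gpr174 and of the second P2ry10 start lie inside their genes. Over all 32851 upstream windows of this length, the strict spelling was in 0.0152% and any of the spellings in 0.0244%. The hexamer by itself, on either strand, was in the window of the first P2ry10 start and in the Gpr132 window, and in 14% of all windows. The Lpar2 window held 11 CG pairs and 64.4% G or C, while the Gpr183 window held 2 CG pairs and 32% G or C. A match or its absence in this window says nothing about binding.

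Total counts were 13144704 to 14947537 in RGX-104 libraries and 14867824 to 15966972 in DMSO libraries, and the 9 receptor genes together had 2900 to 3352 reads in RGX-104 libraries and 3465 to 3678 in DMSO libraries. Levels are given in CPM, counts divided by the TMM-scaled library size and multiplied by a fixed constant. The kit read transcript ends, so CPM was not divided by length, and it compares libraries for a gene, not the number of molecules between genes. In the fit over all 12162 genes tested (edgeR's quasi-likelihood test, Benjamini-Hochberg adjusted p under 0.05), Lpar2 rose and Gpr183 fell, and 6 other receptor genes were not called. S1pr5 was too low to be tested. Of all genes tested, 2.66% were called, 0.888% as higher and 1.78% as lower. Both called receptor genes, and none of the other 6 tested, had groups that did not overlap in CPM, which held for 8.2% of all genes tested, 3.88% as higher and 4.32% as lower. The median log2 fold change was -0.09 over the 8 tested receptor genes, with 3 positive and 5 negative, and 0.00 over all genes tested.

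**Figure D1:**
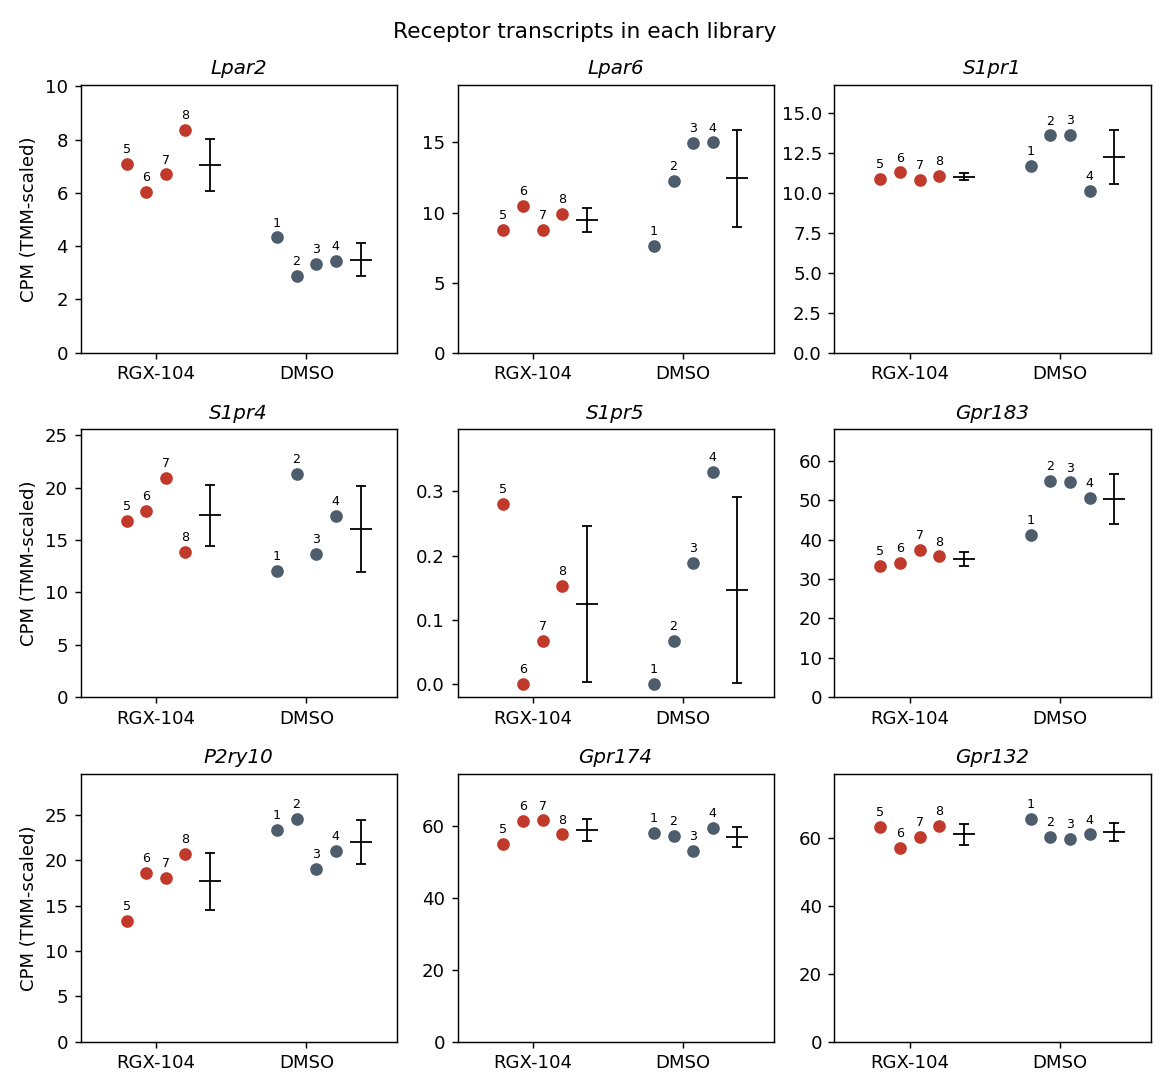
CPM of each of the 9 receptor genes in each library, with the replicate number above each point and the mean ± SD of the 4 libraries of a group beside it; each panel has its own vertical axis. The RGX-104 points lie above all DMSO points for Lpar2 and below all of them for Gpr183, and the groups overlap for the others.

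Lpar2 encodes an LPA receptor that couples to several G protein classes. It lies on chromosome 8 (69822565 to 69831102, plus strand; RefSeq, GRCm38.p6). It was at 7.08, 6.05, 6.70 and 8.38 CPM in RGX-104 replicates 5 to 8, against 4.33, 2.89, 3.34 and 3.44 CPM in DMSO replicates 1 to 4. The lowest RGX-104 library was above the highest DMSO library. The mean was 7.05 ± 0.983 CPM in RGX-104 and 3.50 ± 0.602 CPM in DMSO (SD, n = 4 each), a log2 fold change of 1.01 ± 0.25 (SE), or 2.01-fold. These levels rest on 398 reads over the RGX-104 libraries and 215 over the DMSO libraries. The direction and size held without any single library, with log2 fold changes of 0.92 to 1.13, but the call was lost in 6 of these 8 fits. It was lost without RGX-104 replicate 5 (1.01), 7 (1.03) or 8 (0.92) and without DMSO replicate 2 (0.93), 3 (0.99) or 4 (1.00).

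Lpar6, an LPA receptor of the purinergic receptor branch, was not called. It was at 8.77, 10.5, 8.77 and 9.91 CPM in RGX-104 replicates 5 to 8, against 7.62, 12.2, 14.95 and 14.997 CPM in DMSO replicates 1 to 4. DMSO replicate 1 was the lowest of all 8 libraries, and the other 3 DMSO libraries were above every RGX-104 library. The log2 fold change was -0.39 ± 0.20, and it ranged from -0.57 without DMSO replicate 1 to -0.29 without DMSO replicate 4. Lpar6 (chromosome 14, 73237891 to 73240358, plus strand) lies inside the gene of the retinoblastoma protein, Rb1, on the opposite strand. Their exons overlap by 408 bp in GENCODE M21, so reads of this stretch cannot be assigned with certainty. Rb1 itself was at 27.5 ± 2.68 CPM in RGX-104 and 29.4 ± 3.54 CPM in DMSO libraries (SD, n = 4 each).

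S1pr1, the receptor that lets lymphocytes leave lymphoid organs, was not called. It was at 10.9, 11.3, 10.8 and 11.05 CPM in RGX-104 replicates 5 to 8, against 11.7, 13.6, 13.6 and 10.1 CPM in DMSO replicates 1 to 4. The RGX-104 libraries lay within the DMSO range, and the log2 fold change was -0.16 ± 0.17. S1pr1 lies on chromosome 3 (115710433 to 115715055, minus strand).

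S1pr4, found mainly in lymphoid and blood cells, was at 16.8, 17.8, 21.0 and 13.9 CPM in RGX-104 replicates 5 to 8, against 12.1, 21.3, 13.7 and 17.3 CPM in DMSO replicates 1 to 4. Both groups spread over about the same range. The log2 fold change was 0.11 ± 0.18 (not called), and it was -0.00 without DMSO replicate 1 and 0.28 without DMSO replicate 2. S1pr4 lies on chromosome 10 (81497745 to 81500137, minus strand).

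S1pr5, which guides natural killer cells and some effector T cells, was near the limit of detection. It had 4, 0, 1 and 2 reads in RGX-104 replicates 5 to 8 and 0, 1, 3 and 5 reads in DMSO replicates 1 to 4. A count of 0 allows up to 0.209 CPM in RGX-104 replicate 6 and up to 0.194 CPM in DMSO replicate 1 (3 reads of the library), for counting error only. No difference was detectable at this depth. S1pr5 lies on chromosome 9 (21242917 to 21248443, minus strand).

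P2ry10 encodes a receptor for lysophosphatidylserine that is found on lymphocytes. It was at 13.3, 18.6, 18.0 and 20.7 CPM in RGX-104 replicates 5 to 8, against 23.3, 24.6, 19.1 and 21.1 CPM in DMSO replicates 1 to 4. Of the RGX-104 libraries, 3 were below every DMSO library and replicate 8 was inside the DMSO range. The log2 fold change was -0.32 ± 0.15 (not called), and it was -0.20 without RGX-104 replicate 5, the lowest library.

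Gpr174, another lysophosphatidylserine receptor of T and B cells, was at 55.1, 61.4, 61.5 and 57.6 CPM in RGX-104 replicates 5 to 8, against 58.0, 57.1, 52.9 and 59.3 CPM in DMSO replicates 1 to 4. The groups overlapped, with a log2 fold change of 0.05 ± 0.08 (not called). P2ry10 (107088492 to 107104974) and Gpr174 (107255878 to 107296771) are neighbours on chromosome X, both on the plus strand and 150.9 kb apart, with P2ry10b between them. P2ry10b, a close relative of P2ry10, was at 2.65 ± 1.06 CPM in RGX-104 and 3.12 ± 0.595 CPM in DMSO libraries (SD, n = 4 each; log2 fold change -0.23 ± 0.36, adjusted p = 0.839 with edgeR). P2ry10 and P2ry10b share 113 of the 2979 runs of 50 bases in P2ry10 transcripts of GENCODE M21. None of the shared runs is within the last 500 bases of a P2ry10 transcript.

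Gpr183 fell in RGX-104 libraries. It encodes the oxysterol receptor also called EBI2 and lies on chromosome 14 (121952331 to 121965193, minus strand). It was at 33.3, 34.1, 37.4 and 35.7 CPM in RGX-104 replicates 5 to 8, against 41.1, 54.8, 54.5 and 50.5 CPM in DMSO replicates 1 to 4. The RGX-104 libraries lay close together, all below DMSO replicate 1, the lowest DMSO library. The mean was 35.1 ± 1.80 CPM in RGX-104 and 50.2 ± 6.396 CPM in DMSO (SD, n = 4 each), a log2 fold change of -0.52 ± 0.11, so that the level fell by 30.1%. The call held in each of the 8 fits without 1 library, with log2 fold changes of -0.60 to -0.47. Gpr183 lies inside Ubac2, on the opposite strand, with no overlap of their exons. Ubac2 was at 47.4 ± 7.31 CPM in RGX-104 and 42.7 ± 3.25 CPM in DMSO libraries (SD, n = 4 each; adjusted p = 0.597 with edgeR).

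Gpr132 encodes a receptor of the proton-sensing branch that responds to oxidised fatty acids, and lies on chromosome 12 (112850873 to 112868416, minus strand). It was at 63.3, 56.9, 60.3 and 63.5 CPM in RGX-104 replicates 5 to 8, against 65.7, 60.2, 59.7 and 61.0 CPM in DMSO replicates 1 to 4. The groups overlapped, and the log2 fold change was -0.02 ± 0.08 (not called), which is the narrowest error of the 8 tested genes.

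**Figure D2:**
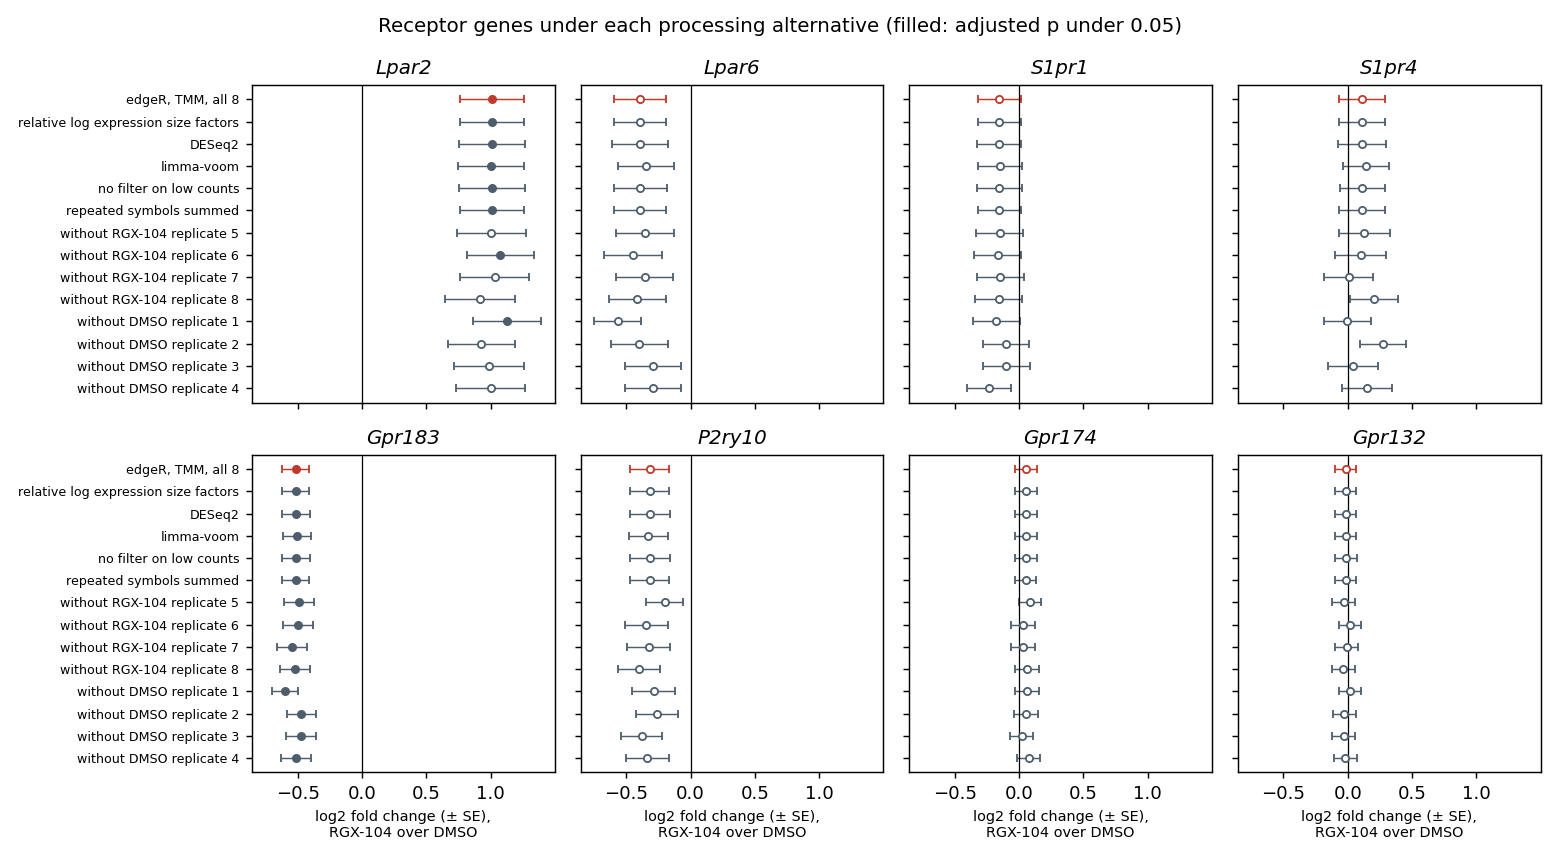
Log2 fold change, RGX-104 over DMSO, with its standard error for the 8 tested receptor genes with all 8 libraries (red, top of each panel) and under each of 13 processing alternatives; filled points had an adjusted p under 0.05. Gpr183 is filled throughout, and Lpar2 is open in the 6 fits without 1 library in which its call was lost.

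**Figure D3:**
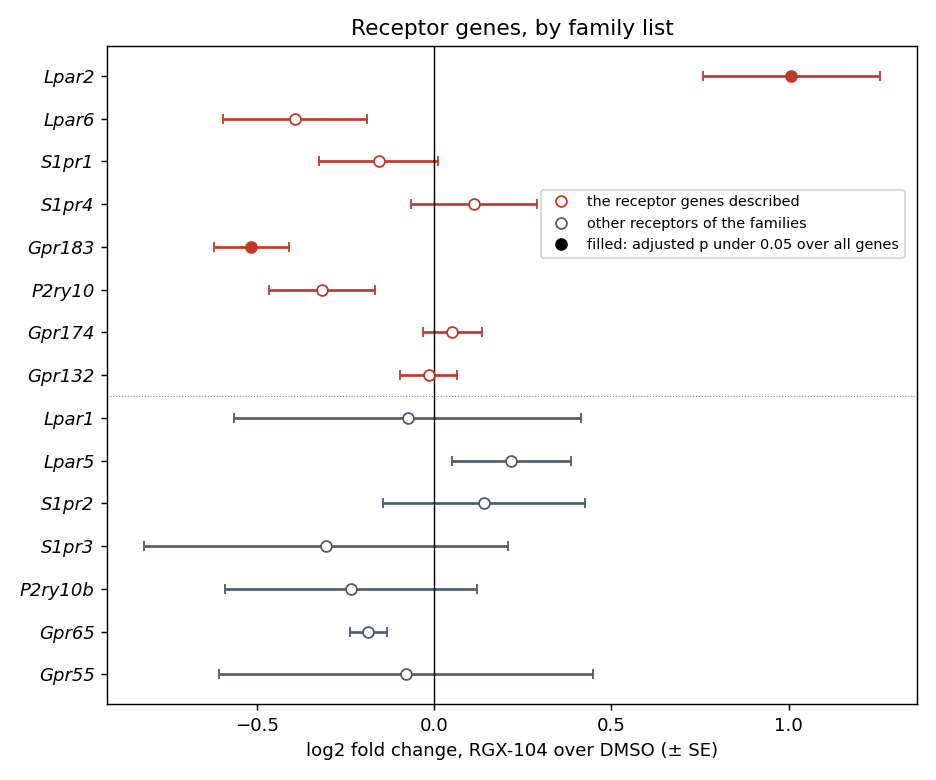
Log2 fold change, RGX-104 over DMSO, with its standard error for the 8 tested receptor genes described (red) and for tested other receptors of the families (grey-blue); filled points had an adjusted p under 0.05 over all genes tested. Lpar2 (1.01) and Gpr183 (-0.52) are filled, and the others are open.

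The 9 genes summed to 218 ± 6.69 CPM in RGX-104 and 235 ± 9.68 CPM in DMSO libraries (SD, n = 4 each). The libraries ranged from 209 to 224.4 CPM in RGX-104 and from 223.8 to 247 CPM in DMSO, so the groups overlapped slightly. The difference of -17.5 CPM was mostly Gpr183, with -15.1 CPM, while P2ry10 added -4.34 CPM and Lpar2 added 3.55 CPM. Gpr132 and Gpr174 gave 28.0% and 27.0% of the receptor reads in RGX-104 and 26.2% and 24.2% in DMSO libraries. The share of Gpr183 was 16.1% in RGX-104 and 21.4% in DMSO libraries, and that of Lpar2 was 3.24% in RGX-104 and 1.49% in DMSO libraries.

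The spread between libraries differed among the receptor genes. For Gpr174 and Gpr132 the SD was 4.43% to 5.30% of the mean in either group, near the 3.25% to 3.46% that counting error alone would give. For Lpar6 and S1pr4 in DMSO libraries it was 27.9% and 25.5%, against counting errors of 7.24% and 6.38%. S1pr1 in RGX-104 libraries had an SD of 1.94%, below its counting error of 8.01%. For Gpr183 the SD was 5.13% in RGX-104 and 12.7% in DMSO libraries, where replicate 1 was lowest.

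**Figure D4:**
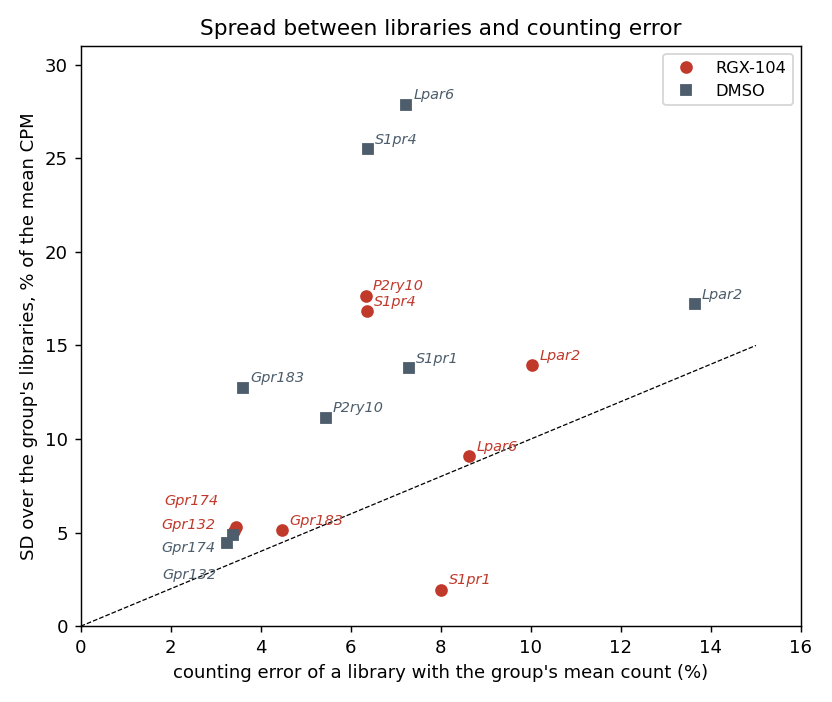
SD over the 4 libraries of a group as a percent of the mean CPM, against the counting error of a library with the group's mean count, for the 8 tested receptor genes; the dashed line marks equality. Lpar6 and S1pr4 in DMSO lie farthest above the line, and S1pr1 in RGX-104 lies below it.

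Other genes of the pathway were listed by role, 66 in all, of which 47 were tested. With edgeR, 0 were higher and 2 lower, Rgs2 and Cd69, while 5 had a positive and 4 a negative change at an unadjusted p under 0.05. Over all genes tested, edgeR called 2.66%, and 13.8% had an unadjusted p under 0.05. DESeq2 called 1 higher and 3 lower, adding Rac2 and Gpr65, and limma-voom called 0 higher and 2 lower. Over all genes, DESeq2 called 190 higher and 295 lower of 10511, and limma-voom 113 higher and 210 lower of 12162. The median log2 fold change of the 47 was 0.03, against 0.00 over all genes tested.

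Of 13 other receptors of the same families, 8 were tested and edgeR called 0, with 1, Gpr65, at an unadjusted p under 0.05 (13.8% of all genes tested); limma-voom called 0 and DESeq2 called Gpr65. Gpr65, an acid-sensing receptor of lymphocytes related to Gpr132, was at 239 ± 10.1 CPM in RGX-104 and 272 ± 10.9 CPM in DMSO libraries (SD, n = 4 each), without overlap, with a log2 fold change of -0.19 ± 0.05 (adjusted p = 0.0686 with edgeR). Lpar5, an LPA receptor of lymphocytes, was at 22.3 ± 3.17 CPM in RGX-104 and 19.2 ± 4.91 CPM in DMSO libraries (log2 fold change 0.22 ± 0.17, adjusted p = 0.620 with edgeR). Lpar3, Lpar4, Gpr34, Gpr4 and Ptafr were too low to be tested. Exons of Gpr65 overlap those of Gm47566 on the opposite strand.

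Of 21 genes that make, carry or break down the ligands, 10 were tested and edgeR, DESeq2 and limma-voom each called 0, with 1, Sgpp1, at an unadjusted p under 0.05 (13.8% of all genes tested). Sgpp1, a phosphatase of sphingosine 1-phosphate, was at 43.4 ± 2.96 CPM in RGX-104 and 35.1 ± 3.92 CPM in DMSO libraries (SD, n = 4 each; log2 fold change 0.31 ± 0.11, adjusted p = 0.163 with edgeR). The sphingosine kinase Sphk2 was at 40.8 ± 0.305 CPM in RGX-104 and 40.9 ± 2.54 CPM in DMSO libraries, and the lyase Sgpl1, which breaks sphingosine 1-phosphate down for good, at 29.1 ± 3.49 CPM in RGX-104 and 28.1 ± 1.95 CPM in DMSO libraries. Exons of Sphk2 overlap those of Dbp and Rpl18 on the opposite strand. The enzymes that make the Gpr183 ligand, Ch25h and Cyp7b1, were at 0.295 ± 0.142 and 0.302 ± 0.125 CPM in RGX-104 libraries, and at 0.374 ± 0.131 and 0.258 ± 0.189 CPM in DMSO libraries, too low to be tested. Exons of Ch25h overlap those of Gm26902 on the opposite strand. Apom is listed at 0 in every library and has a further entry under that symbol, so it is not read as absent.

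Of 26 genes of G proteins and receptor signalling, 23 were tested, 0 rose and 1 fell with edgeR, and 4 had a positive and 2 a negative change at an unadjusted p under 0.05 (over all genes tested, 2.66% were called and 13.8% had such a p). Rgs2, which speeds the shut-off of G protein signals, was at 84.2 ± 11.5 CPM in RGX-104 and 118 ± 2.40 CPM in DMSO libraries (SD, n = 4 each), and fell by 0.49 ± 0.08 on the log2 scale (adjusted p = 0.000630 with edgeR). Its RGX-104 libraries ranged from 75.7 to 101 CPM and its DMSO libraries from 115 to 121 CPM, without overlap. The 3 genes with the most reads were the G protein subunits Gnas (658 ± 30.5 CPM in RGX-104 and 629 ± 36.3 CPM in DMSO) and Gnai2 (369 ± 9.97 CPM in RGX-104 and 363 ± 4.13 CPM in DMSO) and the small GTPase Rhoa (319 ± 10.7 CPM in RGX-104 and 298 ± 27.8 CPM in DMSO), none of them called. Exons of Gnas and Rhoa overlap genes on the opposite strand.

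Of 6 genes that set S1pr1 levels or mark cells able to leave lymphoid organs, 0 rose and 1 fell with edgeR, and DESeq2 and limma-voom gave the same counts; 1 had an unadjusted p under 0.05 (over all genes tested, 1.78% were called lower and 13.8% had such a p). Cd69, which binds S1pr1 and draws it from the cell surface, was at 92.6 ± 5.82 CPM in RGX-104 and 124 ± 6.06 CPM in DMSO libraries (SD, n = 4 each; log2 fold change -0.42 ± 0.07, adjusted p = 0.000649 with edgeR). Klf2, which drives S1pr1 transcription, was at 13.01 ± 3.82 CPM in RGX-104 and 13.6 ± 1.51 CPM in DMSO libraries (adjusted p = 0.929 with edgeR). The lymph node homing receptor Ccr7 was at 493 ± 46.9 CPM in RGX-104 and 465 ± 24.7 CPM in DMSO libraries (adjusted p = 0.571 with edgeR).

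**Figure D5:**
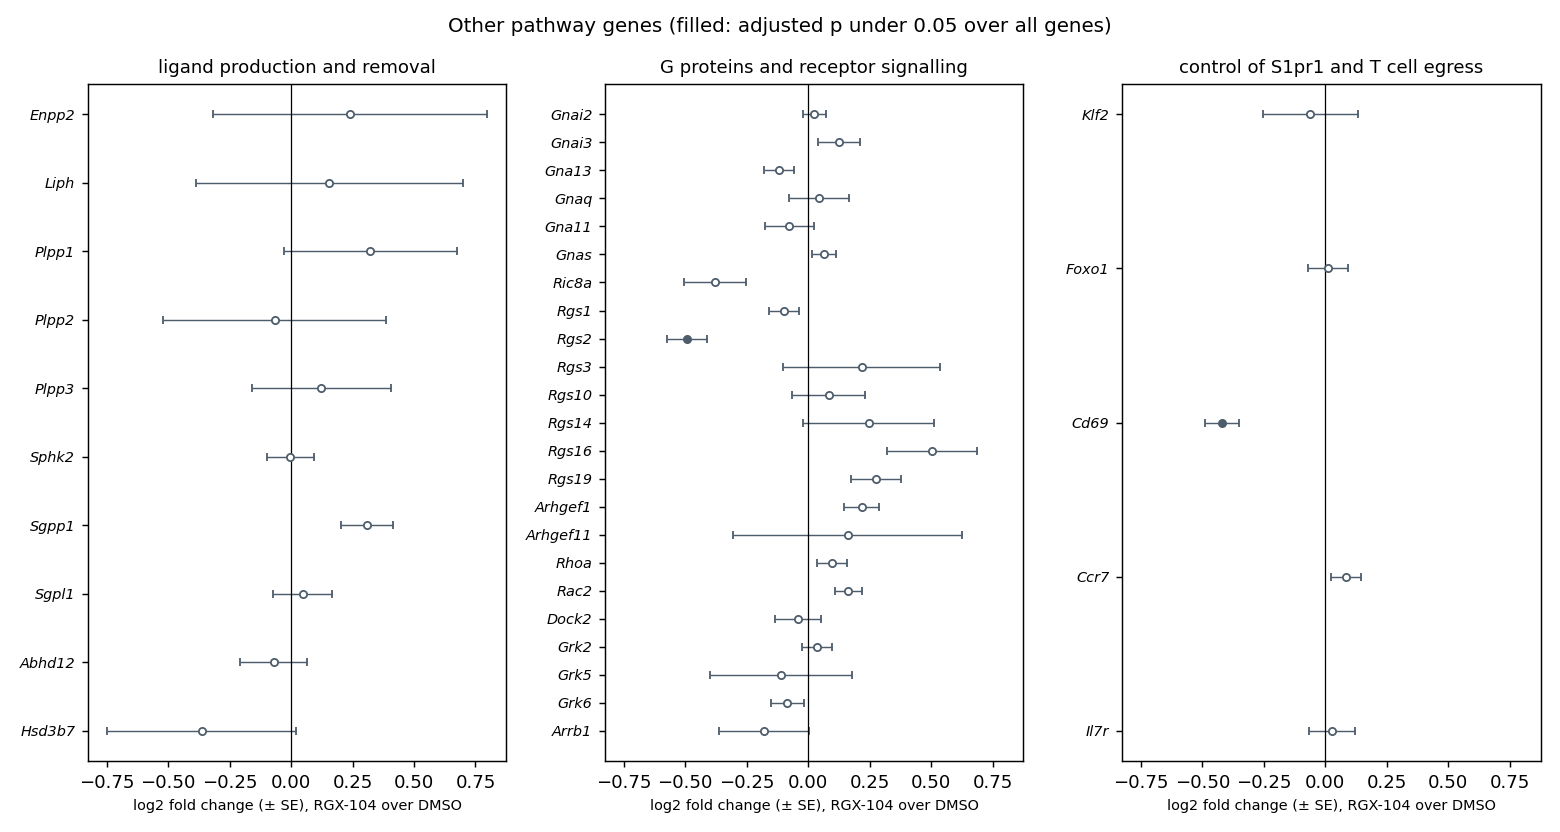
Log2 fold change, RGX-104 over DMSO, with its standard error for tested genes of 3 pathway lists, from left to right ligand production and removal, G proteins and receptor signalling, and control of S1pr1 and T cell egress; filled points had an adjusted p under 0.05 over all genes tested. Rgs2 (-0.49) and Cd69 (-0.42) are filled.

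The genes whose pattern over the 8 libraries was closest to those of Lpar2 and Gpr183 were picked by the root mean square difference of log2 CPM, each gene centred on its own DMSO mean, among 10974 other tested genes whose counts averaged 20 or more. Since this choice fixes how they differ between the groups, their values are a description with no test. For Lpar2 these were Icos (0.16), Arl4c (0.23) and Scd2 (0.25). Icos was at 5.97 ± 0.664 CPM in RGX-104 and 2.84 ± 0.857 CPM in DMSO libraries, from 337 and 175 reads. The table holds a further entry of that symbol. The log2 fold change of Icos was 1.06 both with repeated symbols summed and without. It ranged from 0.95 to 1.29 when 1 library was left out. For Gpr183 they were Stam (0.08), Gfi1 (0.09) and n-TRacg3 (0.10). Gfi1 was at 95.7 ± 6.14 CPM in RGX-104 and 130 ± 12.3 CPM in DMSO libraries (SD, n = 4 each). Exons of Gfi1 overlap those of A430072P03Rik on the opposite strand.

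Lymphocytes and myeloid cells share several of these receptors, so marker lists of other cells were summed in each library. Of all genes tested, 0.888% were called higher, 2.66% were called in either direction and 13.8% had an unadjusted p under 0.05. CD8 T cell markers summed to 2424 to 2497 CPM in RGX-104 and 2090 to 2123 CPM in DMSO libraries without overlap. Of these, 11 of 11 were tested and 4 were higher. An exact two-sided permutation test gave p = 0.0286, the smallest the design allows, and 0.143 adjusted over the 5 lists. The lists were chosen with earlier results of these data known, so the permutation p-values of all 5 are a description. The higher sum was largely Cd8a (397 CPM in RGX-104 and 276 CPM in DMSO) and Cd8b1 (451 and 344 CPM). Thy1 and Lat were also called higher. The other 7 were not called, with log2 fold changes from -0.06 (Cd6) to 0.40 (Cd3g). Dendritic cell markers summed to 155 to 180.4 CPM in RGX-104 and 170 to 187 CPM in DMSO libraries. Of these, 8 of 12 were tested, with 0 called by edgeR and 3 at an unadjusted p under 0.05. The exact permutation p was 0.0857, and 0.214 adjusted over the lists. Most of this sum was Cst3 (68.9 CPM in RGX-104 and 68.0 CPM in DMSO), Batf3 (58.6 and 72.0 CPM) and Cd83 (24.4 and 25.2 CPM). The lower sum in RGX-104 was mostly Batf3. Of the 8 tested, 2 had a positive and 6 a negative log2 fold change, with a median of -0.34. The 3 at an unadjusted p under 0.05 were Batf3 (log2 fold change -0.30), Ccl22 (-1.18) and Fscn1 (-0.83). Ccl22 was at 1.61 CPM in RGX-104 and 3.66 CPM in DMSO, without overlap, and Fscn1 at 2.37 and 4.23 CPM. Itgax went the other way, at 1.66 CPM in RGX-104 and 1.11 CPM in DMSO. Ccl17, Xcr1, Clec9a and Cd209a were too low to be tested. Macrophage and monocyte markers summed to 47.3 to 55.0 CPM in RGX-104 and 42.6 to 49.9 CPM in DMSO (7 of 10 tested, 0 called by edgeR and 0 at an unadjusted p under 0.05; exact permutation p = 0.143, 0.238 adjusted). B cell markers summed to 1.37 to 2.08 CPM in RGX-104 and 1.78 to 2.42 CPM in DMSO libraries (1 of 5 tested, Cd79a at 0; exact permutation p = 0.229, 0.286 adjusted). NK cell markers summed to 0.772 to 1.52 CPM in RGX-104 and 0.646 to 3.09 CPM in DMSO libraries (1 of 3 tested; exact permutation p = 0.571, 0.571 adjusted). The part of these shifts in the receptor levels was not tested, and in bulk RNA fewer cells that express a receptor cannot be told apart from less receptor RNA per cell.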

How the data were processed

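RNA of sorted OT-I CD8+ T cells was sequenced with a Lexogen 3′ FWD kit, per the labels' protocols. The authors deposited raw counts, whole numbers of reads for each gene. The submitters' processing notes list STAR 2.7.8a, R 4.1.0, DESeq2 1.4 and GRCm38. How reads were counted, on which strand and annotation, and whether molecular identifiers were used is not given in the sources used here; counting errors and floors cover counting error only.

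All 8 columns matched a sample by the number and group word of its title (0 columns of another series). Counts were tested here with edgeR 4.0.16 in R 4.3.3: filterByExpr, TMM, estimateDisp, glmQLFit and glmQLFTest, with treatment as sole factor and Benjamini-Hochberg adjustment over 12162 genes (threshold 0.05). The standard error is the log2 fold change divided by the square root of F. The common spread between libraries of a group (edgeR's BCV) was 14.5%. Within groups, chi-square per degree of freedom between any pair of libraries was 6.60 to 10.1, so none was merged as 1 library deposited again; this does not show that they came from separate cultures. DESeq2 1.42.0 and limma-voom (limma 3.58.1) were alternatives.

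Receptors, lists and naming rules were chosen with earlier results of these data known. Named were all 9 receptors, called pathway genes, the 3 tested genes of each pathway list with the highest CPM (some items are counted in the lists but not reported here), and the 3 genes closest in pattern (log2 CPM, prior count 2) to the receptors with the largest rise and fall. Ch25h, Cyp7b1, Klf2, P2ry10b, Rac2, Apom and the untested receptors were named for their roles or counts, after values were seen. Symbols of 39351 of 41730 entries (94.3%) and of all 9 receptors were in the RefSeq gene table of GRCm38.p6. No receptor symbol is repeated in the table, and 2379 entries carry an appended number. Exon overlaps of at least 100 bp and shared 50-base runs were read from GENCODE M21. No 50-base run in the last 500 bases of a receptor transcript occurred in a transcript of another gene.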

Additional observations from a re-analysis of the deposited data

Results flagged for a closer look

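In groups of 4 libraries, 1 library stood far from the other 3 in 2 of 68 group and measure pairs looked at, and chance alone flags about 1 in 20. The summed dendritic cell markers were at 180.4 CPM in RGX-104 replicate 8, against 155 to 158 CPM in the other RGX-104 libraries. Without that library the log2 fold change of Lpar2 was 0.92 and that of Gpr183 was -0.52. The transcript n-TRacg3, one of the 3 closest in pattern to Gpr183, was at 4.80 CPM in RGX-104 replicate 6, against 5.87 to 6.03 CPM in the other RGX-104 libraries. None of the 9 receptor genes was among these.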

How the results depend on the processing

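Gpr183 was called in all 13 alternatives and Lpar2 in 7, so the number of receptor genes called was 1 to 2 when 1 library was left out and 2 in the other 5 alternatives. Over all genes, 108 were higher and 216 lower. DESeq2 called 190 higher and 295 lower, and leaving out 1 library gave 57 to 93 higher and 144 to 211 lower. Pathway genes higher numbered 0, and 1 with DESeq2. Genes near zero changed sign when a library was left out, over ranges of -0.00299 to 0.276 for S1pr4, -0.0343 to 0.0170 for Gpr132, -0.0360 to 0.0281 for Sphk2 and -0.0371 to 0.101 for Sgpl1 (log2), and the cause was not tested. Rgs2 and Cd69 were called in all 13 alternatives. No paired analysis was run, because the labels give no pairing of libraries between the groups. The replicate numbers are the running sample numbers of the titles. S1pr5, with 7 and 9 reads in RGX-104 and DMSO, stayed below what the depth can resolve. The median shift of all genes was 0.00 (log2) under both scalings.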
